A study of Homo sapiens with 4 samples.

Results

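The SR protein and hnRNP genes were examined in m6A meRIP-seq data of OE-19 cells. They were the 39 of 20046 protein-coding genes of the hg38 annotation whose symbol was SRSF followed by digits, or began with HNRNP. The set held 12 SRSF genes and 27 HNRNP genes. The rule itself used no measured value, but it was set with earlier results of these data known. OE-19 is an established cell line of adenocarcinoma of the esophagogastric junction (AEG), and it was grown without any treatment that the labels name. The series held 4 samples of this line, with 2 replicates pulled down with an antibody against m6A and 2 replicates of input RNA. Each m6A replicate had its own list of peaks, and input lists were not analysed here. The labels do not say whether the replicates came from separate cultures. With 1 group of 2 lists, the comparisons were descriptive and no p-value was computed.

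SR proteins bind exonic sequences through their RNA recognition motifs and recruit the spliceosome through a domain rich in arginine and serine. The hnRNP proteins coat nascent transcripts, and many of them hold splice sites back. Genes of both families are known to limit their own output by including a poison exon or keeping an intron, which introduces a premature stop codon and sends the mRNA to nonsense-mediated decay. N6-methyladenosine (m6A) is placed on mRNA by the METTL3 and METTL14 complex, mostly near stop codons and in long exons, and exon junction complexes keep it away from nearby splice junctions.

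Replicate 1 had 24607 peaks and replicate 2 had 19318, of which 18488 and 12003 had their summit in an exon of a protein-coding gene. A peak is a stretch of the genome where pulled-down fragments pile up, and its summit is the highest point. The fold enrichment is the peak caller's ratio of the pile-up at the summit to its local background. Because the lists hold no read numbers, expression levels or strand, library depth is unknown and the line could not be checked against marker genes. A gene without a peak may therefore be unmethylated, not expressed or too shallowly covered, and these cannot be told apart. Exons were the union of all annotated transcripts of a gene, and a summit outside them but within the gene was called intronic.

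In replicate 1, 21 of the 39 genes had an exonic summit (53.8%, 95% Wilson interval 38.6% to 68.4%), beside 42.4% of all protein-coding genes. In replicate 2, 17 genes had one (43.6%, interval 29.3% to 59.0%), beside 34.1%. The same 17 genes had a summit in both replicates, beside 33.4% of all protein-coding genes. By family, 5 of 12 SRSF genes (41.7%) and 12 of 27 HNRNP genes (44.4%) had a summit in both. The SRSF genes were SRSF4, SRSF5, SRSF6, SRSF8 and SRSF11. The HNRNP genes were HNRNPA0, HNRNPA1L2, HNRNPDL, HNRNPF, HNRNPH2, HNRNPLL, HNRNPM, HNRNPR, HNRNPU, HNRNPUL1, HNRNPUL2 and the readthrough gene HNRNPUL2-BSCL2, which shares exon 1 and its peak with HNRNPUL2. The interval for each count included the share of all protein-coding genes.

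Long genes carried peaks more often, and the SR protein and hnRNP genes were long, with a median exonic length of 5529 nt against 4416 nt for all protein-coding genes. When each gene was given the share seen among genes of its own length, in 20 length classes, 14.4 of the 39 genes (36.8%) would carry a summit in both replicates, against the 17 found. The same calculation gave 4.85 for the SRSF genes, where 5 were found, and 9.52 for the HNRNP genes, where 12 were found. In 5 broader length classes, the share was 1 of 7 genes in the shortest class, 2 of 3 in the next, then 3 of 6, 6 of 15 and 5 of 8. All protein-coding genes rose over the same classes from 11.3% to 26.1%, 35.6%, 44.8% and 48.9%. Each of these shares lay within the interval of the SR protein and hnRNP genes in its class, and expression was not part of the calculation.

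**Figure D1:**
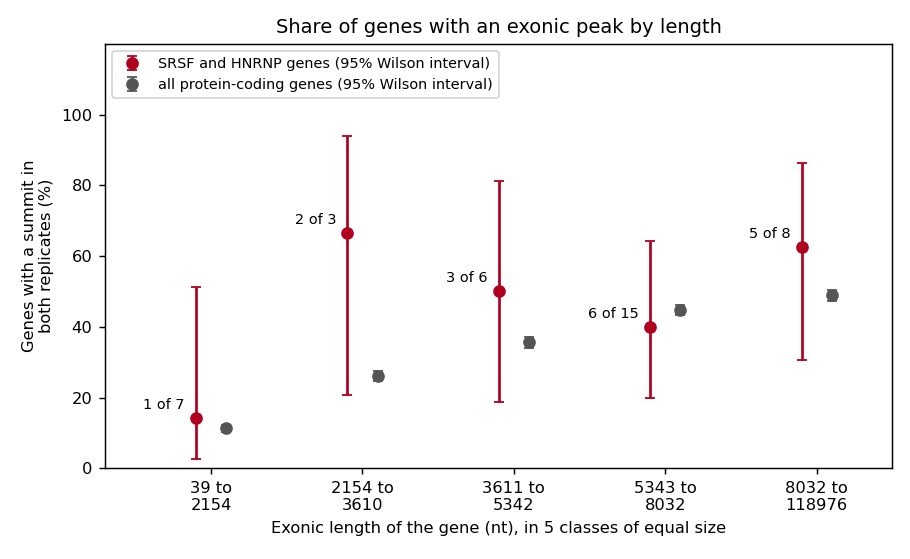
The share of genes with an exonic summit in both replicates (%, y axis) is plotted against exonic length in 5 classes of equal size (nt, x axis), for the SRSF and HNRNP genes and for all protein-coding genes, with 95% Wilson intervals as bars. The share of all protein-coding genes rises with length from 11.3% to 48.9% and lies inside the wide interval of the SRSF and HNRNP genes in every class.

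The peaks of these genes were weak beside those of all protein-coding genes. The median fold enrichment of their exonic peaks was 3.99 in replicate 1 (37 peaks, quartiles 2.62 and 5.23, range 1.69 to 10.5), against 5.21 for all exonic peaks. In replicate 2 it was 3.29 (20 peaks, quartiles 2.66 and 4.49, range 1.90 to 7.69), against 4.72. A fold enrichment of 5 or more was reached by 12 of 37 peaks in replicate 1 (32.4%, interval 19.6% to 48.5%, against 53.8% of all exonic peaks). In replicate 2, 4 of 20 reached it (20%, interval 8.07% to 41.6%, against 46.0%). Only 2 of the 39 genes, SRSF8 and HNRNPH2, had an exonic summit with a fold enrichment of 5 or more in both replicates (5.13%, interval 1.42% to 16.9%), beside 19.3% of all protein-coding genes. SRSF peaks had medians of 5.08 and 3.79, and HNRNP peaks had medians of 3.64 and 3.03. The medians of both families lay below those of all exonic peaks, but by little for the SRSF peaks in replicate 1. A fold enrichment of 5 or more was reached by 50% (interval 21.5% to 78.5%) and 42.9% (interval 15.8% to 74.95%) of SRSF peaks, near the shares of all exonic peaks. Among HNRNP peaks it was 27.6% and 7.69%. However, SRSF8 supplied every SRSF peak of 5 or more in replicate 2, and all but that of SRSF11 (5.96) in replicate 1. The remaining SRSF peaks had 2.62 to 4.53 in replicate 1 and 2.02 to 3.79 in replicate 2. Low values were thus found in both families, and the higher SRSF shares rested mainly on 1 gene.

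**Figure D2:**
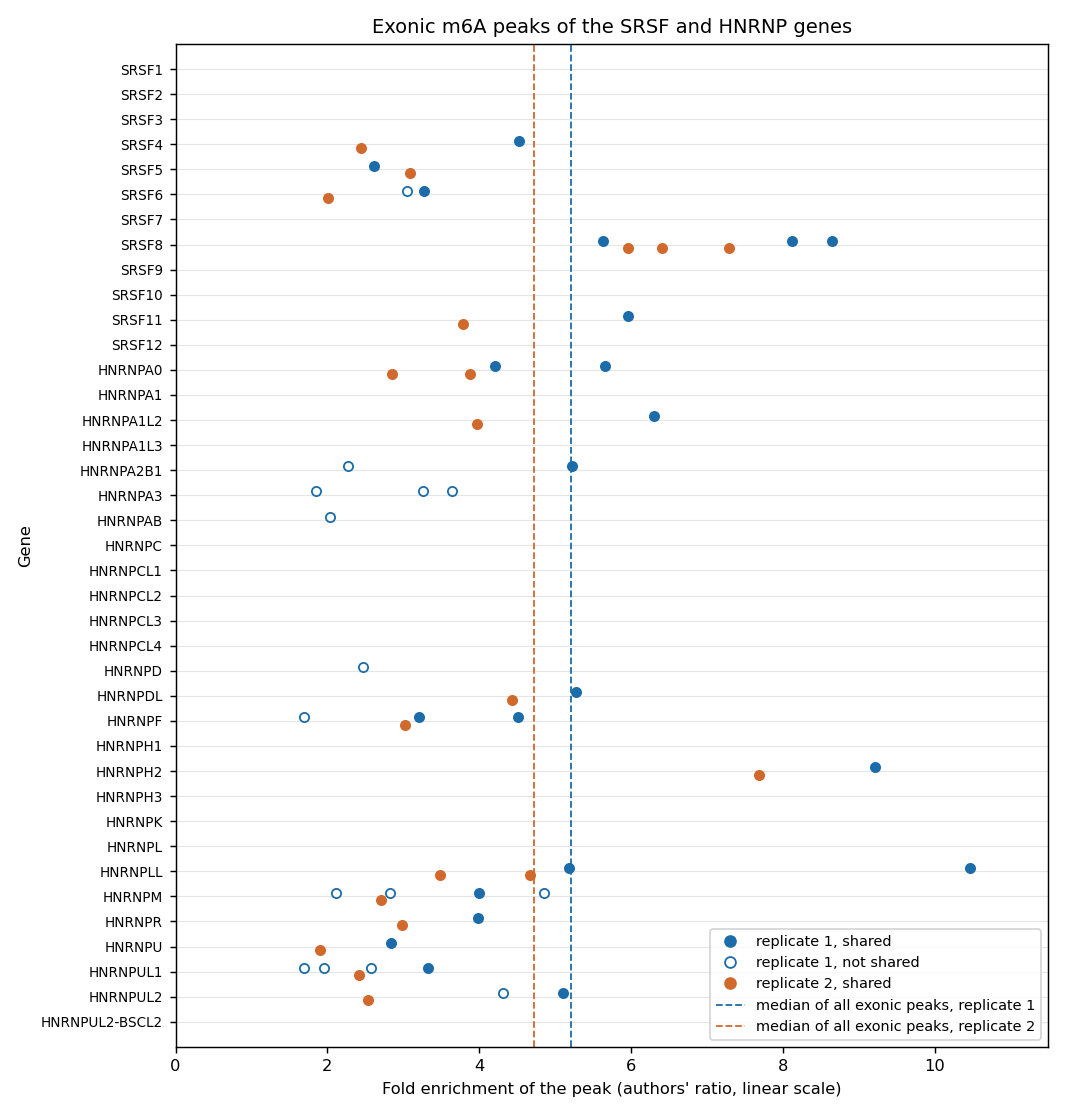
Each point is 1 exonic peak, with its fold enrichment (linear scale, x axis) in the row of its gene (y axis), blue for replicate 1 and orange for replicate 2, filled where the peak overlaps a peak of the other replicate. Most points lie left of the dashed medians of all exonic peaks (5.21 and 4.72), SRSF8, HNRNPH2 and HNRNPLL reach furthest right, and the peak that HNRNPUL2-BSCL2 shares with HNRNPUL2 is drawn once, under HNRNPUL2.

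Among the SRSF genes, SRSF8 stood out. It is an intronless retrocopy of SRSF2, and its transcript of 1 exon and 4307 nt (chromosome 11) held 3 peaks in each replicate. In replicate 1 the fold enrichments were 8.12 with a summit 6 nt before the stop codon, 5.64 at 564 nt after it, and 8.64 at 2442 nt after it. In replicate 2 they were 7.29 in the 5′ UTR, 938 nt before the stop codon, 5.97 at 45 nt before the stop codon, and 6.41 at 2441 nt after it. The −log10 q of these peaks ranged from 11.7 to 55.5. The summits of the distal peak fell 1 bp apart, although its −log10 q of 16.1 and 13.4 were far below the 55.5 and 48.3 of the peak over the stop codon. GGAC, the core of the m6A motif, lay close to all 3 summits of replicate 1. The hg38 sequences around those copies (plus strand) are shown with GGAC, and any GAAC, AGAC or AAAC, in capitals.
SRSF8 before the stop codon, chr11:95068027-95068072: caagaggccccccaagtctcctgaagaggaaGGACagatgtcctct
SRSF8 3′ UTR, chr11:95068589-95068614: ttcatgtgaaaGGACtggggttttag
SRSF8 3′ UTR, chr11:95070515-95070540: tgacccacagaGGACatGAACccatg

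The other SRSF genes with peaks have many exons, and each had its shared peak in the coding part of the last exon. In SRSF4 the fold enrichment was 4.53 and 2.45 in replicates 1 and 2, with summits 332 and 317 nt before the stop codon in exon 6 of 6. For SRSF5 the values were 2.62 and 3.09, with summits 70 and 76 nt before the stop codon in exon 8 of 8. SRSF6 had 3.27 and 2.02, at 42 and 55 nt before the stop codon in exon 6 of 6. The peak of SRSF11 had fold enrichments of 5.96 and 3.79 (−log10 q 29.2 and 15.6), at 67 and 74 nt before the stop codon in exon 12 of 12. In these SR proteins the domain rich in arginine and serine follows the RNA recognition motifs. Whether the RNA under these summits encodes that domain was not examined. The summits of the replicates lay 6 to 15 bp apart in these 4 genes. SRSF6 also had a peak of replicate 1 in the 5′ UTR, with a fold enrichment of 3.06, which had no partner in replicate 2.

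None of these 4 last-exon summits had GGAC within 50 nt in either replicate (0 of 4, interval up to 49.0%), beside 49.8% and 51.8% of all exonic summits. When GAAC, AGAC and AAAC were also accepted, 3 of 4 had a motif in each replicate, beside 84.4% and 87.3%. The search beyond GGAC was chosen after the values were seen. The 81 nt centred on each summit of replicate 1 are shown because they lack GGAC, in hg38 on the strand of the gene, with GAAC, AGAC and AAAC in capitals.
SRSF4 (minus), chr1:29148704-29148784: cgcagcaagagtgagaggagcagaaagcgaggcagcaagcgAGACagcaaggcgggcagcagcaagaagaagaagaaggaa
SRSF5 (plus), chr14:69771349-69771429: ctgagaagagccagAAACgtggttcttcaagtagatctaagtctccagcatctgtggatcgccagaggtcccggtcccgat
SRSF6 (plus), chr20:43460979-43461059: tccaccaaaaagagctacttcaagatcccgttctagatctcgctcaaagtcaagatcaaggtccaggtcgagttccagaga
SRSF11 (plus), chr1:70250696-70250776: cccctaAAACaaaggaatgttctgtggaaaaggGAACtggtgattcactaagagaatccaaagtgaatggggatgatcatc

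The other 7 SRSF genes, SRSF1, SRSF2, SRSF3, SRSF7, SRSF9, SRSF10 and SRSF12, had no exonic summit in either replicate. SRSF1, SRSF2 and SRSF3 are among the founding members of the family. SRSF2, the parent of SRSF8, thus had no peak while SRSF8 had 3 in each replicate. The coding sequence of SRSF2 matched SRSF8 at 84.5% identity over 58.1% of its length.

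Among the HNRNP genes, the pair of peaks with the highest geometric mean was in HNRNPH2, a close relative of HNRNPH1 whose protein binds runs of guanine. Its values were 9.22 and 7.69 in replicates 1 and 2, with −log10 q of 58.8 and 56.1. Both summits also lay in an exon of the readthrough gene RPL36A-HNRNPH2. The summits lay 11 bp apart in the coding sequence, 1088 and 1099 nt before the stop codon, in exon 2 of 2 (2198 nt), and the geometric mean of the 2 values was higher than in 80.6% of all exonic pairs of peaks. HNRNPF, another relative, had 2 coding peaks in replicate 1. They had fold enrichments of 4.51, 508 nt before the stop codon, and 3.21, 1027 nt before it, with −log10 q of 50.9 and 32.9. In replicate 2, 1 peak of 999 bp covered both, with a fold enrichment of 3.03 (−log10 q 34.8) and its summit 1017 nt before the stop codon. A weak peak of HNRNPF in replicate 1, with a fold enrichment of 1.69, lay in the 5′ UTR and was not shared. HNRNPH1 had no peak in either replicate.

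HNRNPH2 and HNRNPF carry their whole coding sequence in 1 exon, whereas that of HNRNPH1 is spread over 12 exons. The coding sequence of HNRNPH2 was 87.6% identical to that of HNRNPH1 and 70.6% identical to that of HNRNPF. The segment under the summit of HNRNPH2 was compared in the 3 genes, a comparison chosen after the peaks were seen. The 49 nt are shown in hg38, on the strand of the gene, with GGAC in capitals, because they hold the same GGAC at the same place in each coding sequence. The segment of HNRNPH2 also begins with another GGAC, where HNRNPF and HNRNPH1 read AGAC.
HNRNPH2 (plus), chrX:101412207-101412255: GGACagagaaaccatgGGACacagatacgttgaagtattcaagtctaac
HNRNPF (minus), chr10:43387618-43387666: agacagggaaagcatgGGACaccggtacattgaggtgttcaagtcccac
HNRNPH1 (minus, spliced, within chr5:179621022-179621276): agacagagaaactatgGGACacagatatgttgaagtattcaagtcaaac

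The segment of HNRNPH1 was identical to that of HNRNPH2 at 45 of 49 positions, and that of HNRNPF at 39 of 49. The shared GGAC lay 287 nt from the nearest exon junction in HNRNPH2 and 286 nt in HNRNPF, in exons of 2198 and 2319 nt. In HNRNPH1 it lay 18 nt from a junction, in exon 3, which is 156 nt long, and the 49 nt ran across an intron into the next exon. Peaks covered the shared GGAC in HNRNPH2 and HNRNPF, whereas HNRNPH1 had no peak at this GGAC or elsewhere in its 9480 nt of annotated exons. The expression of the 3 genes was not measured in these lists. The parts of expression and of junction distance in the difference were not tested.

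HNRNPA0 and HNRNPA1L2 also encode their protein in 1 exon. HNRNPA0, a relative of HNRNPA1 that binds AU-rich RNA, had 2 shared peaks in its 8713 nt transcript. The peak after the stop codon had fold enrichments of 5.65 and 3.88 (−log10 q 32.7 and 24.2), with summits 163 and 166 nt into the 3′ UTR. The coding peak had 4.20 and 2.85 (−log10 q 39.1 and 25.3), with summits 711 and 694 nt before the stop codon. HNRNPA1L2, a retrocopy of HNRNPA1, had a peak with fold enrichments of 6.31 and 3.97, but with low −log10 q of 6.32 and 3.55. Its assignment is uncertain, because the sequence under the peak had 53 other copies in hg38 at 90% identity or more in replicate 1 and 45 in replicate 2. The closest were the pseudogene HNRNPA1P7 for the peak of replicate 1 (99.1%) and HNRNPA1 for that of replicate 2 (98.4%). The sites of HNRNPA0 are shown in hg38 (minus strand) with GGAC in capitals.
HNRNPA0 3′ UTR, chr5:137752935-137752960: cctctgaagatGGACtcggccccaca
HNRNPA0 coding sequence, chr5:137753822-137753902: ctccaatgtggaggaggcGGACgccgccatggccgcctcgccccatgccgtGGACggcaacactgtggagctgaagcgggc

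In total, 5 of the 10 genes with 1 coding exon had a summit in both replicates (50%, interval 23.7% to 76.3%), beside 26.3% of all protein-coding genes of that kind. They were SRSF8, HNRNPA0, HNRNPA1L2, HNRNPF and HNRNPH2, and the other 5 were HNRNPA1L3 and HNRNPCL1 to HNRNPCL4. Of the 29 genes with 2 or more coding exons, 12 had one (41.4%, interval 25.5% to 59.3%), beside 34.2%. The interval of the genes with 1 coding exon included 26.3%, and the split by coding exons was chosen after the values were seen.

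The shared peaks of the hnRNP U group lay near the start of the mRNA. HNRNPU, a scaffold attachment protein, had fold enrichments of 2.84 and 1.90, the lowest geometric mean of the 19 pairs, with summits 2040 and 2066 nt before the stop codon in exon 1 of 14 (927 nt). HNRNPUL1 had 3.32 and 2.41 in exon 1 of 15 (427 nt, −log10 q 24.2 and 12.5). HNRNPUL2 had 5.10 and 2.53 in exon 1 of 14 (839 nt, −log10 q 37.7 and 13.5). All of these shared summits lay in the coding sequence. HNRNPUL1 had 3 further peaks in replicate 1, with fold enrichments of 1.69 in exon 2, 2.57 in exon 3 and 1.95 in the last exon, 32 nt after the stop codon. HNRNPUL2 had 1 more, with 4.32 in the 3′ UTR, 294 nt after the stop codon. None of these 4 was shared.

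HNRNPDL and HNRNPLL had shared peaks in the 5′ UTR part of exon 1. HNRNPDL, a relative of the mRNA decay factor HNRNPD, had fold enrichments of 5.27 and 4.43 (−log10 q 14.03 and 15.82), with summits 8 bp apart in an exon of 1215 nt. In HNRNPLL, a regulator of alternative splicing of CD45 in lymphocytes, the values were 5.18 and 3.48 (−log10 q 16.5 and 7.94). The strongest single peak of all 39 genes was a second peak of HNRNPLL. It reached 10.5 in replicate 1 but 4.67 in replicate 2 (−log10 q 18.3 and 7.26), and its summit lay outside the main transcript. It fell in the 911 nt terminal exon, exon 7 of 7, of the shorter protein-coding transcript ENST00000410076.5, downstream of that transcript's coding sequence. The GGAC sites of the 5′ UTR peaks are shown in hg38 (minus strand), with GGAC and AGAC in capitals.
HNRNPDL 5′ UTR, chr4:82429850-82429875: tgggctGGACcGGACgccagAGACaa
HNRNPLL 5′ UTR, chr2:38602741-38602766: gcagtccccgcGGACggccgggccgc

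HNRNPM and HNRNPR held their shared peaks in long exons further along. HNRNPM had 4 peaks in replicate 1, and the shared peak was the only one in a long exon. It had fold enrichments of 4 and 2.71 (−log10 q 40.2 and 24.2), with summits 130 and 138 nt from the nearest junction of exon 14 of 16, which is 803 nt long. The peaks that were not shared had 4.85, 2.83 and 2.12 and lay in exons of 137, 170 and 54 nt, with summits 1, 67 and 3 nt from a junction. The peak of HNRNPR, in its last exon of 6379 nt, had 3.99 and 2.98 (−log10 q 26.2 and 18.5), with summits 163 and 147 nt before the stop codon. Exon 14 of HNRNPM is shown around its summit in hg38 (plus strand) with GGAC in capitals, since its repeats read much alike.
HNRNPM coding sequence, chr19:8485693-8485773: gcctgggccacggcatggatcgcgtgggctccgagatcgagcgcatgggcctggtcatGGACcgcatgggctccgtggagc

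In 4 genes, HNRNPA2B1, HNRNPA3, HNRNPAB and HNRNPD, a summit was found in replicate 1 only. HNRNPA2B1, which has been described as a reader of m6A, had fold enrichments of 5.23 and 2.27. The stronger one lay in the last exon of the transcript ENST00000676749.1, outside the main transcript and over an exon of NFE2L3, and the lists cannot assign it to a strand. That peak overlapped a peak of replicate 2, whose summit was not in an exon of HNRNPA2B1. HNRNPA3 had 3 peaks with 3.26, 1.85 and 3.64 (−log10 q 7.53, 5.26 and 8.68), of which the last 2 lay over exons of NFE2L2 as well. HNRNPAB had 2.04 and HNRNPD 2.47, each in the 5′ UTR in exon 1. None of the other 18 genes had an exonic summit. They were the 7 SRSF genes named above with HNRNPA1, HNRNPA1L3, HNRNPC, HNRNPCL1 to HNRNPCL4, HNRNPH1, HNRNPH3, HNRNPK and HNRNPL. HNRNPA1, HNRNPC, HNRNPK and HNRNPL are known as abundant hnRNP proteins.

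Many of the genes without a peak have similar copies elsewhere in the genome. A copy of at least 90% identity over at least 50% of the coding sequence was found elsewhere in hg38 for 13 of the 18 genes without a summit, with a median of 2.5 copies. It was found for 4 of the 17 genes with a summit in both replicates, with a median of 0. The share among all protein-coding genes was not computed, so these counts cannot be read as a trait of genes without peaks. Genes with a summit in replicate 1 only were left out. The counts are also not independent, since the best copies of HNRNPCL1 to HNRNPCL4, among the 18, were other genes of that group. Likewise, the 17 included both HNRNPUL2 and its readthrough gene. Among the genes without a summit, HNRNPA1 had 46 such copies, HNRNPC 10, SRSF3 4 and HNRNPK 3, and SRSF1, SRSF2, SRSF7, SRSF12 and HNRNPH3 had 0. Among the genes with a summit in both replicates, HNRNPA1L2 had 48. How the authors' mapping treated reads with several matches, and whether copies bear on missing peaks, was not tested. The peaks themselves had such a copy in 9 of 37 cases in replicate 1 and 6 of 20 in replicate 2, among them the peaks of SRSF6, SRSF11, HNRNPR and HNRNPH2 and the 5′ UTR peak of SRSF8 in replicate 2 (93.8% identity to SRSF8CP), so these assignments are less certain than the rest. Of 134 annotated pseudogenes of the 2 families, 2 had a summit in replicate 1 (beside 2.39% of all annotated pseudogenes) and 4 in replicate 2 (beside 1.66%). HNRNPA1P16 had one in both, with fold enrichments of 9.21 and 9.23, over an exon of SRR. The search for copies was added after the values were seen.

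Next, the agreement of the replicates was examined peak by peak. Of the 37 peaks of replicate 1, 22 overlapped a peak of replicate 2 by at least 1 bp (59.5%, interval 43.5% to 73.6%), against 60.6% of all exonic peaks. All 20 peaks of replicate 2 overlapped one of replicate 1 (interval 83.9% to 100%), against 95.9%. In replicate 1, the median fold was 5.14 for shared peaks (2.62 to 10.5) and 2.47 for the others (1.69 to 4.85). For all exonic peaks these medians were 6.47 and 3.96. Of the SRSF peaks of replicate 1, 7 of 8 were shared (87.5%), and of the HNRNP peaks 15 of 29 (51.7%), with overlapping intervals of 52.9% to 97.8% and 34.4% to 68.6%.

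There were 19 pairs in which each peak was the best overlap of its partner. The value of replicate 1 was the higher one in 18 of them, with a median log2 ratio of 0.56 (−0.24 in SRSF5 to 1.16 in HNRNPLL). Over all 10855 exonic pairs, 80.6% were higher in replicate 1, with a median log2 ratio of 0.44, so a shift in the same direction was present over all genes. The median distance between paired summits was 15 bp, against 26 bp for all pairs. The median geometric mean of the pairs was 3.70, against 5.63.

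**Figure D3:**
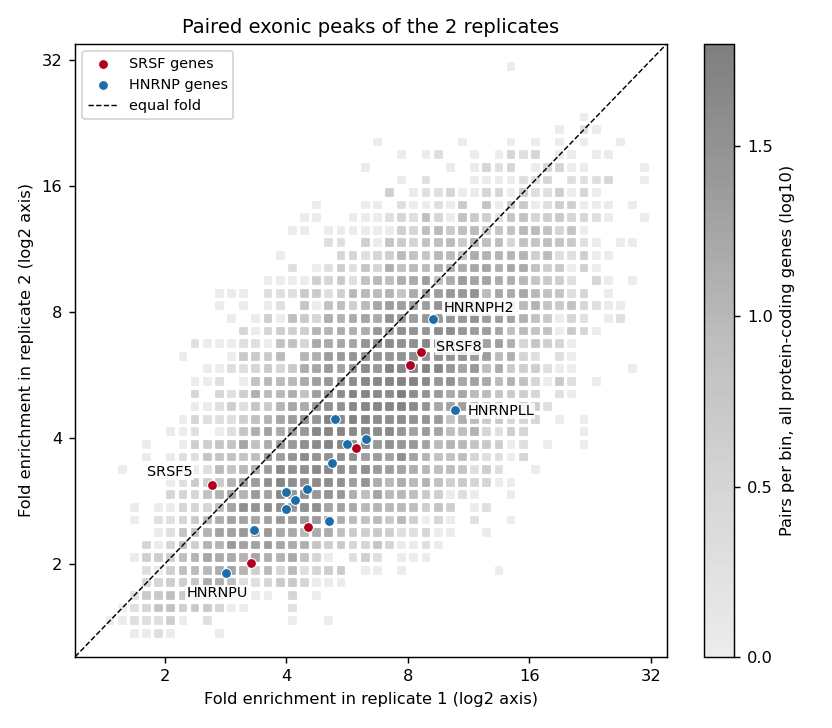
The fold enrichment of paired exonic peaks in replicate 2 (y axis) is plotted against replicate 1 (x axis), both on log2 axes, with SRSF pairs in red, HNRNP pairs in blue and the number of all 10855 pairs per bin in grey. Of the 19 coloured points, 18 lie below the line of equal fold and most sit in the lower left of the grey cloud, with SRSF5 the exception above the line.

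The summits were then placed on the main transcript of each gene, counting 200 nt up- and downstream of the stop codon as its window. In replicate 1, 9 of 37 summits lay in the stop codon window (24.3%, against 22.6% of all exonic summits), 15 in the rest of the coding sequence (40.5% against 43.6%), 6 in the 5′ UTR (16.2% against 8.30%), 4 in the rest of the 3′ UTR (10.8% against 16.9%) and 3 outside that transcript (8.11% against 8.68%). In replicate 2, the stop codon window held 6 of 20 (30% against 25.2%), the coding sequence 9 (45% against 43.3%), the 5′ UTR 3 (15% against 5.26%), the 3′ UTR 1 (5% against 18.7%) and the outside 1 (5% against 7.51%). The interval of the 5′ UTR share was 7.65% to 31.1% in replicate 1 and 5.24% to 36.0% in replicate 2, and its lower end in replicate 2 fell just below the share of all summits. The stop codon window held 4 of 8 and 4 of 7 SRSF summits, and 5 of 29 and 2 of 13 HNRNP summits.

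**Figure D4:**
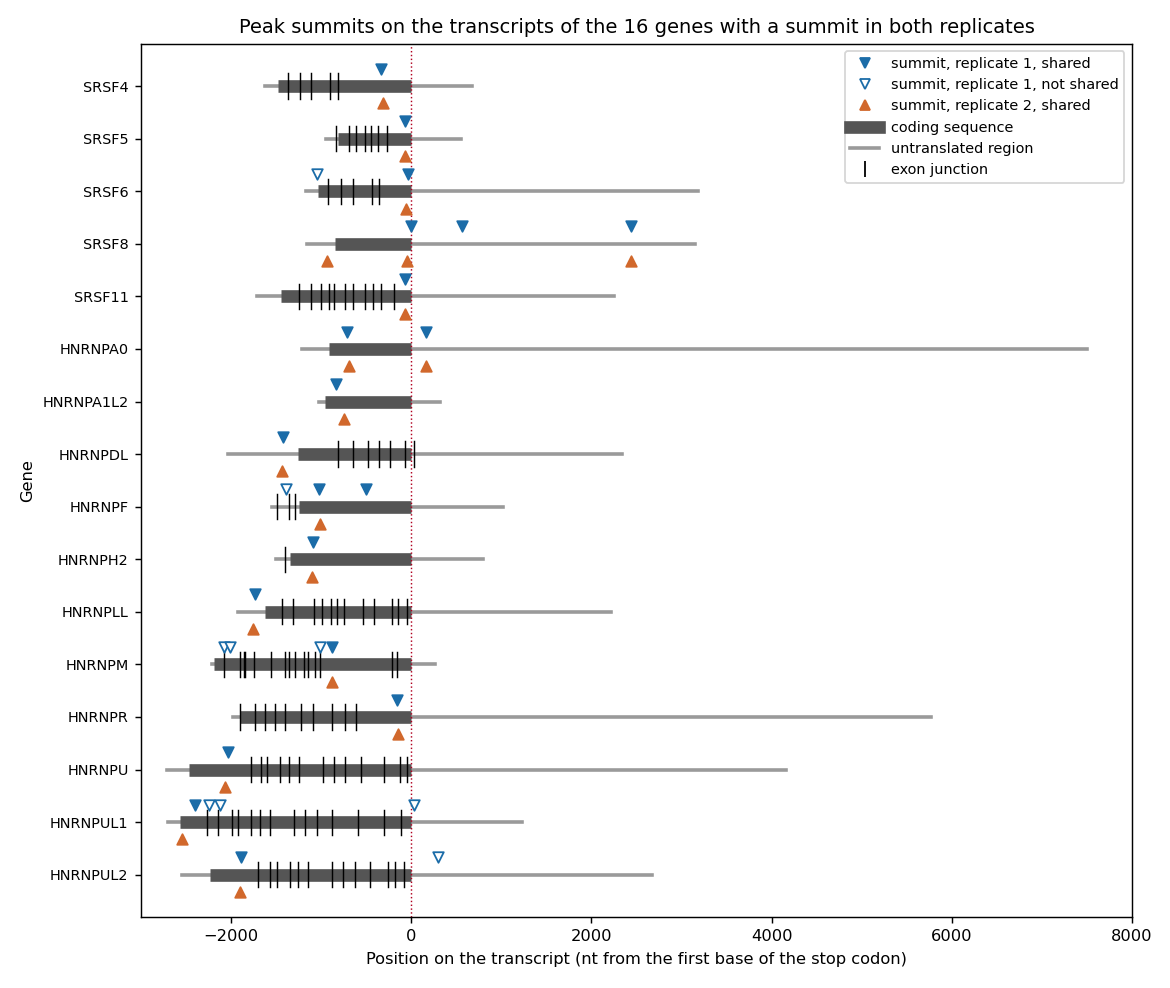
The main transcripts of the 16 genes with their own summit in both replicates are drawn to scale (nt from the start of the stop codon, x axis), with coding sequence thick, untranslated regions thin, exon junctions as ticks and summits as triangles, blue for replicate 1 and orange for replicate 2, open where not shared. Shared summits sit in the last exon of the SRSF genes and in exon 1 of the HNRNPU group, and the HNRNPLL peak outside the main transcript is not drawn.

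The place within exons was examined after the values had been seen. On transcripts with 2 or more exons, 9 of 28 summits of replicate 1 lay in exon 1 (32.1%, against 14.2% of all exonic summits) and 12 of 28 in the last exon (42.9%, against 50.6%). In replicate 2, exon 1 held 5 of 13 (38.5%, against 8.94%) and the last exon 7 of 13 (53.8%, against 59.5%). Exon 1 makes up 10.2% of the transcript length of the SR protein and hnRNP genes with a summit, and 6.55% for all protein-coding genes with a summit. In replicate 2, all 5 summits in exon 1 belonged to HNRNP genes, namely HNRNPDL, HNRNPLL, HNRNPU, HNRNPUL1 and HNRNPUL2.

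All 14 shared summits of replicate 1 on such transcripts lay 100 nt or more from the nearest exon junction (interval 78.5% to 100%), with a median of 286 nt and a lowest value of 124 nt. Of the 14 summits that were not shared, 6 lay that far away (42.9%, interval 21.4% to 67.4%), with a median of 75.5 nt. For all exonic summits the shares were 91.5% and 65.3%. In replicate 2, all 13 summits lay 100 nt or more away (lowest 121 nt), against 92.4% of all shared summits. In replicate 1 the median distance over all genes was 292 nt for shared and 139 nt for unshared summits. Of the transcript length of the SR protein and hnRNP genes with a summit, 67.15% lay 100 nt or more from junctions. For all protein-coding genes with a summit it was 66.61%.

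**Figure D5:**
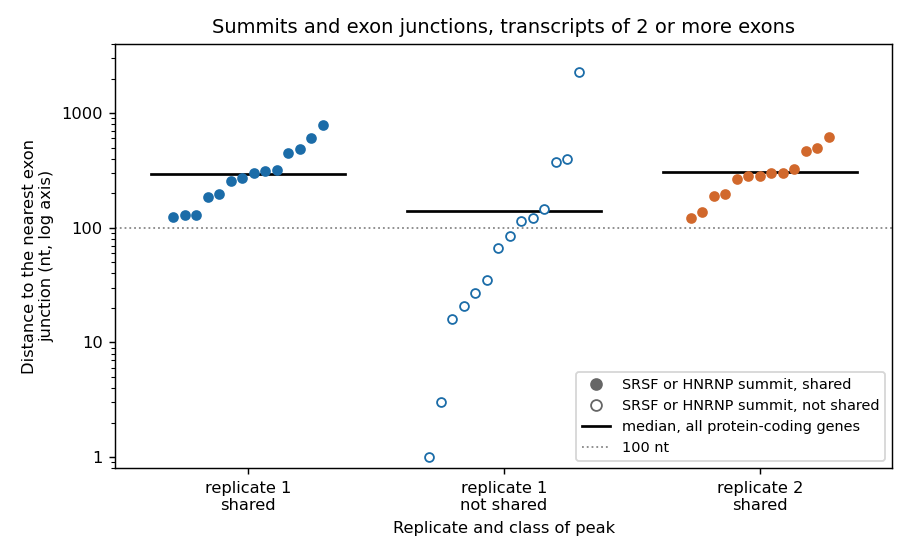
The distance from each summit to the nearest exon junction (nt, log y axis) is shown for shared and unshared peaks of replicate 1 and shared peaks of replicate 2 (x axis), 1 point per SRSF or HNRNP summit on transcripts of 2 or more exons, with the median of all protein-coding genes as a bar. Every shared summit lies above the dotted line at 100 nt, whereas 8 of the 14 unshared summits lie below it.

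Poison exons and retained introns were considered because these families regulate themselves through them. A poison exon was an internal exon that lies within an intron of the main transcript, belongs to a transcript annotated for nonsense-mediated decay and holds no coding sequence of a protein-coding transcript. The annotation gave 24 of them in 14 of the genes, with a median length of 135 nt. SRSF4 had 5, SRSF7 and SRSF11 3 each, SRSF3 and SRSF12 2 each, and SRSF2, SRSF6, SRSF9, SRSF10, HNRNPD, HNRNPDL, HNRNPH1, HNRNPL and HNRNPLL 1 each. None was annotated for SRSF1 or SRSF5 under this definition, and alternative ends of the same exon counted separately. No summit of either replicate lay in any of the 24 (0%, interval up to 13.8%), and no peak overlapped one. Of all protein-coding genes with a poison exon, 1.22% had a summit in one, and 0.898% of all 6462 poison exons held a summit. The closest approach was in SRSF6, where a summit lay 1135 bp from the poison exon.

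Retained introns were introns of the main transcript covered by an exon of a transcript annotated as retained intron, and there were 50 in 14 genes. A single one held a summit, in 1 of 14 genes (7.14%, beside 3.74% of all genes with a retained intron). It was an 83 nt intron of HNRNPA3 (chr2:177216593-177216675), with a summit of replicate 1 at a fold enrichment of 3.26, and it was not found in replicate 2. Peaks of either replicate overlapped 4 of the 50 introns (8%), beside 6.25% of all retained introns. All of these peaks were of replicate 1, with 3 introns in HNRNPA3 and 1 of 201 nt in HNRNPA2B1. In HNRNPA3, the same peak overlapped more than 1 of the introns. HNRNPU, with 11 retained introns, HNRNPH1, with 8, and HNRNPA2B1, with 6, had no summit in one. The share of 1 in 50 introns (2%, interval 0.354% to 10.5%) included the 1.72% of all 10234 retained introns.

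Intronic summits outside every annotated exon were rare. HNRNPF and HNRNPH2 had 1 each in replicate 1 (2 of 39 genes, 5.13%), beside 9.17% of all protein-coding genes. In replicate 2 none of the 39 genes had one (interval up to 8.97%), beside 9.42%. Intron length was not part of this comparison, and the main transcripts of SRSF8, HNRNPA0, HNRNPA1L2 and HNRNPCL4 have no intron. The peak of HNRNPF had a fold enrichment of 5.24 and its summit lay 38 bp from an exon. That of HNRNPH2 had 6.84 and lay 3 bp from an exon. Neither was shared, so no gene of the families had an intronic summit in both replicates.

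Over all summits, GGAC within 50 nt on the strand of the gene was found at 17 of 37 in replicate 1 (45.9%, interval 31.0% to 61.6%, against 49.8% of all exonic summits) and at 12 of 20 in replicate 2 (60%, interval 38.7% to 78.1%, against 51.8%). Its reverse complement GTCC, which is GGAC on the other strand, was found at 11 of 37 (29.7% against 31.4%) and 8 of 20 (40% against 29.5%). By family, GGAC was found at 4 of 8 SRSF summits (50%) and 13 of 29 HNRNP summits (44.8%) in replicate 1. In replicate 2 the order was reversed, with 2 of 7 SRSF summits (28.6%, interval 8.22% to 64.1%) and 10 of 13 HNRNP summits (76.9%, interval 49.7% to 91.8%). Both SRSF summits with GGAC in replicate 2 belonged to SRSF8. GTCC was found at 4 of 8 SRSF summits in replicate 1 (50%) and 5 of 7 in replicate 2 (71.4%, interval 35.9% to 91.8%). At SRSF summits of replicate 2 it was thus more frequent than GGAC. For HNRNP summits GTCC was found at 7 of 29 (24.1%) and 3 of 13 (23.1%). With GAAC, AGAC and AAAC added, 30 of 37 and 18 of 20 summits had a motif (81.1% and 90%), beside 84.4% and 87.3%.

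Other genes of the splicing and decay pathways were counted in the same way, from lists of textbook members, and the genes named below led their list by the geometric mean of the 2 replicates. In all protein-coding genes the share with a summit in both replicates was 33.4%. Of 10 hnRNP proteins under other symbols, 3 had an exonic summit in both replicates, where the shares of all genes of like exonic length would give 4.27, and their folds were low, with 3.98 and 3.73 in SYNCRIP, a relative of HNRNPR, 2.39 and 2.09 in RBMX, the hnRNP G protein, and 2.78 and 1.63 in PCBP1, a poly(C)-binding protein. Of 16 SR-like regulators, SR protein kinases and import factors, 9 had one, where lengths would give 6.97, led by ACIN1 (16.6 and 7.32) and the kinases SRPK2 (8.68 and 7.36) and CLK3 (9.97 and 5.92). Among 12 factors for the branch point and the 3′ splice site, 4 had one, where lengths would give 4.07, led by U2AF2 (5.96 and 6.51), although SF3B3 had the higher value in replicate 1 (6.83 and 2.75). Of 10 nonsense-mediated decay factors, 8 had one, where lengths would give 4.14, and SMG8 (13.7 and 11.01) and UPF2 (13.2 and 10.7) exceeded every SRSF and HNRNP peak. Among 20 other regulators of alternative splicing, 4 had one, where lengths would give 8.996, led by the epithelial regulator ESRP2 (14.7 and 10.2). MBNL2 of that list had the higher value in replicate 1 (18.3 and 5.29). The median folds of the hnRNP proteins under other symbols were 3.06 and 2.34, and those of the decay factors 5.21 and 4.56, against 5.21 and 4.72 for all exonic peaks. The SR-like list had medians of 3.765 and 3.273 (38 and 24 peaks). The branch point list had 2.997 and 2.476 (11 and 6 peaks), and the other regulators 3.686 and 4.473 (9 and 6 peaks). These medians also lay below those of all exonic peaks, so low medians were not particular to the SRSF and HNRNP genes.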

How the data were processed

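The analysis used 1 peak list for each of the 2 m6A IP samples of OE-19 cells and none for the 2 input samples, which entered no comparison. According to the study's methods, DNase-treated and fragmented total RNA was immunoprecipitated, whereas the labels speak of UV-fixed and lysed cells. The methods name TopHat2 for mapping to hg38, whereas the submitters' processing notes name fastp, HISAT2 and MACS2. Versions, and whether the input served as control for MACS2, are not given in the sources used here. The authors deposited, for each peak, a fold enrichment (the ratio of the summit's pile-up to local background) and −log10 of the p-value and q-value. The deposited score was not used. The lists end at a q of 0.0491 and 0.0497. Fold enrichment depends on the local background, so it is not a level of m6A.

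All 24 chromosomes in each list matched hg38 and 0 peaks ran past an end. Genes were taken from GENCODE version 44. Each summit was assigned to the protein-coding gene whose exon held it, with SRSF and HNRNP genes given precedence where exons overlapped. The main transcript was MANE Select or else that with the longest CDS. Peaks were shared when they overlapped by 1 bp or more. Intervals are 95% Wilson intervals over genes or peaks and cover counting only. Neighbouring peaks of 1 gene are not independent. Copies were searched with megablast (BLAST 2.17.0), and coding sequences were aligned with Biopython 1.88. Other peak thresholds, overlap rules, feature definitions and windows, and each list alone, were tried 1 at a time. All sequences were read from hg38. No test was run, since 2 lists of 1 group allow none. Most values stand beside those of all protein-coding genes, but those of the copies elsewhere in hg38 do not. The genes and lists were chosen with earlier results of these data known. Full values were given for the 10 genes with the strongest pair of peaks, those with a summit in a poison exon or retained intron or with intronic summits in both replicates, and those with the most summits. Beyond that rule, the remaining genes with a summit were added after the values were seen. Genes of the other lists were named from the 5 highest per list. The scripts were tested on simulated data. Software was Python 3.11.15 with pysam 0.24.0, numpy 2.4.6 and matplotlib 3.10.9.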

Additional observations from a re-analysis of the deposited data

How the results depend on the processing

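Of 78 values recomputed under alternative settings, 64 stayed within 1.5 times the main count, within the main Wilson interval or within the SD of the replicate medians. No paired analysis was possible because the input samples had no lists and no test was run. Replicate 1 alone gave 21 genes with a summit, and replicate 2 alone gave 17. With both lists, the 17 genes with a summit in both replicates ranged from 12 to 18 in all settings but 1. That 1 was a fold enrichment of 5 or more, which left 2. That setting turned the comparison with all protein-coding genes, from 43.6% against 33.4% to 5.13% against 19.3%. They were 16 without the readthrough gene and 16 without summits over exons on the opposite strand, both settings chosen after seeing the data, and 12 when only summits in exons of 1 gene were kept. Poison exons held 0 summits under all 10 alternatives. Retained introns with a summit went from 1 to 0 with a fold enrichment of 5 or more and to 4 when any overlap of a peak counted, and ranged from 0 to 1 when a replicate was left out. Genes with an intronic summit ranged from 0 to 2 when a replicate was left out. The mean of the replicate medians of fold enrichment, 3.64, ranged from 3.29 to 3.99. The share of summits in the stop codon window, 26.3% over both lists, fell to 15.8% with a window of 100 nt. The share of shared peaks, 73.7%, became 56.2% with a fold enrichment of 5 or more and 49.1% when 50% of both peaks had to overlap, and ranged from 59.5% to 100% when a replicate was left out. The share of summits with GGAC, 50.9%, became 68.8% with a fold enrichment of 5 or more, 35.1% and 70.2% with windows of 25 and 100 nt, and 19.3% with TGGAC. In replicate 1 this share was below that of all exonic summits (45.9%, all 49.8%), whereas in replicate 2 it was above (60%, all 51.8%). The depth of the libraries is unknown, so weak or missing peaks cannot be told apart from low coverage. With 39 genes, 37 and 20 peaks, only large departures from all protein-coding genes would show.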
